A study of Mus musculus with 8 samples.

Results

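The 45 genes described here encode the machinery that copies DNA and the regulators that switch this machinery on. They were measured in hematopoietic stem cells of mice homozygous for elektra, a loss-of-function allele of Slfn2, and of wildtype littermates. The members are a set list of gene symbols covering the replicative polymerases, the sliding clamp and its loader, RPA, GINS, origin loading, fork protection, chromatin assembly, repair at the fork and the E2F pathway. Each member was read from the row carrying its symbol, and for Rpa3, the only symbol with 2 rows, from the row with the higher mean. All 45 were found among the 30802 symbols listed. Of these symbols 15710 were tested, and 44 members were among them. The other one, Orc1, lay just under the level filter.

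The elektra group (Slfn2 elektra/elektra) and the wildtype group (Slfn2 wt/wt) each had 4 arrays, both on a C57Bl/6 background, with no treatment of the mice. Ages are not given in the labels. The elektra allele is a strain mutation that is not restricted to blood cells. Cells were sorted from c-kit enriched bone marrow as LSK CD9hi CD48- CD150+, a phenotype of long-term stem cells. According to the protocol each sample pooled bones of 2 mice of a genotype, while the series text counts 4 mice per genotype, and about 200 pg of RNA was amplified with 12 PCR cycles. All values below are RMA log2 signals of Affymetrix arrays, and a difference is elektra minus wildtype on that scale. Signals of different genes are not compared, because probes differ in brightness.

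In a dividing cell, the origin recognition complex and Cdc6 load the helicase in G1, GINS then joins it to start the fork, and primase with polymerase alpha lays primers that polymerases delta and epsilon extend. PCNA, the sliding clamp loaded by RFC, holds the polymerases on DNA, RPA coats single-stranded DNA, and chromatin assembly factors rebuild nucleosomes behind the fork. Most of these genes are switched on together by E2F transcription factors at the entry into S phase. Long-term stem cells of the adult marrow are mostly quiescent, and transcripts of this kind are known to be low in them and to increase when they enter the cycle.

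Medians of the elektra arrays were 6.11 to 6.21 and those of the wildtype arrays 6.12 to 6.26 (two-sided exact permutation test, p = 0.286). The interquartile range of an array was 2.49 to 2.67 for elektra and 2.41 to 2.64 for wildtype (same test, exact p = 0.2, where 0.0286 is the smallest p possible with 4 against 4 arrays). Slfn2 signals were 8.17, 7.90, 7.79 and 8.08 in elektra and 7.48, 7.22, 7.53 and 8.41 in wildtype, a difference of 0.33 ± 0.22 (SE; limma adjusted p = 0.598). This signal measures the amount of transcript and does not read the allele. All 12 stem cell markers, among them Kit, Ly6a, Slamf1, Procr and Mecom, were above the level filter, with a list mean of 9.84 to 9.98 on the elektra arrays and 9.74 to 10.01 on the wildtype arrays. Markers of other lineages were above the filter for 1 of 6 B cell genes and 2 of 5 T and NK cell genes. The same held for 4 of 6 erythroid, 6 of 10 granulocyte and monocyte and 5 of 6 megakaryocyte genes. Cd79a, Cd3e and Cd3g were below the filter, while Nkg7 and Lck of the T and NK cell list were above it. The labels call the samples biological replicates but do not say from which mice each came, so p-values measure the spread between these arrays. Elektra replicate 3 and wildtype replicate 3 stood apart in Xist, at 5.06 and 5.37, where the other arrays read 10.26 to 10.79. Without both of them 11 of 45 members, or 24.4%, were higher at an unadjusted limma p under 0.05, where 6.09% of all genes were.

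Most replication genes had a higher mean in elektra stem cells, by small amounts. Of the 44 members tested, 39 were higher in the mean and 5 lower, and their median difference was 0.19, or 1.14-fold, against a median of 0.01 over all genes tested. In all, 88.6% of the members had the higher mean in elektra, where 53.1% of all genes tested did. No member passed the threshold of 0.05 after adjustment over all genes, which 0.0382% of the genes tested passed with limma, and the smallest adjusted p of a member was 0.259, for Ung. With an unadjusted limma p below 0.05 there were 15 members higher in elektra, a share of 34.1%, and 0 members lower, where 7.02% of all genes were higher and 3.95% lower. Every elektra array lay above every wildtype array for 9 members, or 20.5%, against a background of 3.9%, and no member showed the reverse, which 2.37% of genes did. The members were proposed with results of these arrays known, so these counts describe them and are not a test of the list. In bulk RNA, more cells in S phase and more transcript per cell cannot be told apart.

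**Figure D1:**
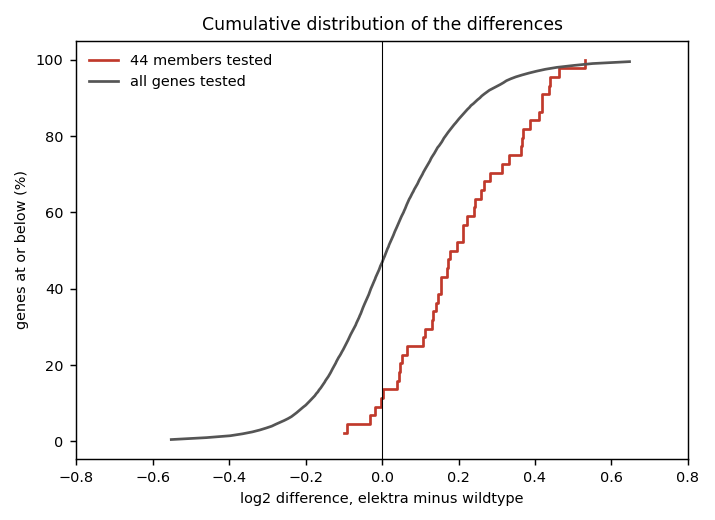
The cumulative percentage of genes (y axis) at or below each log2 difference, elektra minus wildtype (x axis), is drawn for the 44 members tested in red and for all 15710 genes tested in grey. The red curve runs to the right of the grey one over nearly its whole length, with a median of 0.19 against 0.01, and its highest point, E2f8 at 0.53, stays within the range of the grey curve.

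Differences of this size are close to the precision of the arrays. The median standard error of a member's difference was 0.12, the same as over all genes, and the single members ran from -0.10 for Prim2 to 0.53 for E2f8. The count of 15 was 8 of 44, or 18.2%, without wildtype replicate 2, where 5.41% of all genes were higher at that p. With the interquartile range of each array as a covariate it was 5, or 11.4%, against 4.52% of all genes, and 1 member, Atad2, was then lower at an unadjusted p of 0.05. Scaling moved the split over all genes, which was 1103 higher to 621 lower as reported, 848 to 796 with quantile scaling and 1503 to 331 under median centring of the arrays. The members were 15, 12 and 18 higher in these settings and 0 lower in each.

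**Figure D2:**
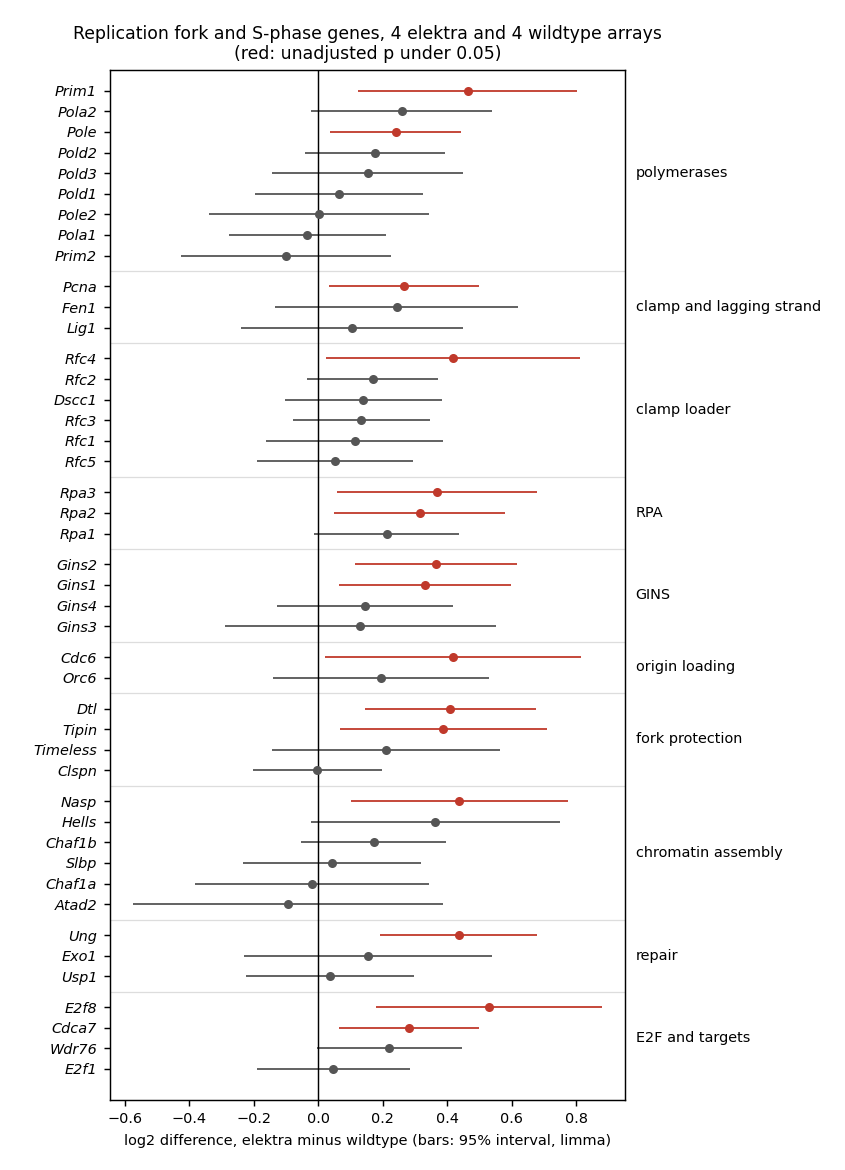
Points give the log2 difference, elektra minus wildtype, of each of the 44 members tested (x axis), with bars for the 95% interval from limma, ordered by role group down the page. Red marks the 15 members with an unadjusted p under 0.05, all of them right of 0, and 5 members lie left of 0 with intervals that include it.

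The members of smallest p were Ung, Dtl and E2f8, which belong to different role groups, and the tested member of largest p was Pole2. Their promoters are shown because E2F, the activator of S-phase genes, binds short GC-rich words near the start of such genes. Each sequence runs 5′ to 3′ on the gene's strand from 250 bases before to 50 bases after the start, as the RefSeq table of build GRCm38.p6 gives it. Capitals mark any match to the words TTTCCCGC, TTTCGCGC, TTTGCCGC or TTTGGCGC on either strand. The Ung promoter lies at chr5:114130185-114130484 on the plus strand, the Dtl promoter at chr1:191575495-191575794 on the minus strand, the E2f8 promoter at chr7:48881547-48881846 on the minus strand and the Pole2 promoter at chr12:69228141-69228440 on the minus strand.
Ung: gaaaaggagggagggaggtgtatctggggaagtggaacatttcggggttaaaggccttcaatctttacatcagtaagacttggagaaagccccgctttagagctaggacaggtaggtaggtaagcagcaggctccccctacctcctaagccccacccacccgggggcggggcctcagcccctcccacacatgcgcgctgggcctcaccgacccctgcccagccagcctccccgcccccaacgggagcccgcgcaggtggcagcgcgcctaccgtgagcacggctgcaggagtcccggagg
Dtl: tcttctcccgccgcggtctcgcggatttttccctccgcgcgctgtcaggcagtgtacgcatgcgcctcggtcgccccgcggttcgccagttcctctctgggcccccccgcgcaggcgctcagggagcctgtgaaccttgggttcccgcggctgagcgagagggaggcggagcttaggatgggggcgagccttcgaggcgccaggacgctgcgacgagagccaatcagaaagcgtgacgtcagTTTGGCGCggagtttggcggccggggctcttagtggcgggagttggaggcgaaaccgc
E2f8: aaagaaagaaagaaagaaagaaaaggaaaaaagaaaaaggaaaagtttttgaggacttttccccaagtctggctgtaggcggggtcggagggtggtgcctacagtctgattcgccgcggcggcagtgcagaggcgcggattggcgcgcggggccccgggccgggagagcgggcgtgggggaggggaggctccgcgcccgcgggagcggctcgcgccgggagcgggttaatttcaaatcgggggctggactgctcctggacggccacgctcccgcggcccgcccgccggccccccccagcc
Pole2: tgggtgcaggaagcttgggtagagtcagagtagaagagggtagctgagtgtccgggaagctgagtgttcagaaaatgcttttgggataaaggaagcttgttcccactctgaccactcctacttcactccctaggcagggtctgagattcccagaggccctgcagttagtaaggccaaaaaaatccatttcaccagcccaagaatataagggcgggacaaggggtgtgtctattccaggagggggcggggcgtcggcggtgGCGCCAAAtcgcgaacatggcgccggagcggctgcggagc

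Dtl holds the word TTTGGCGC from 8 bases before the start, on its own strand, and Pole2 holds the same word on the opposite strand, 11 bases into the transcript. The windows of Ung and E2f8 hold none of the 4 words, and E2f8 differed most among the members. Promoters were found for 34 of the 45 members. At least 1 of the 4 words was in 13 of these 34 (38.2%), in 704 of 27025 genes of the table (2.60%) and in 454 of the 10174 genes tested that have a promoter there (4.46%). Among the members with a promoter, 3 of the 11 that were higher at an unadjusted p of 0.05 held a word, as did 9 of the 22 others tested. CCAAT, the word of the NF-Y factor, was in 18 of the 34 members (52.9%), in 41.1% of all genes of the table and in 41.8% of those tested. TTTGAA, one form of the cell cycle homology element, was in 6 members (17.6%), in 20.2% of all genes of the table and in 13.8% of those tested. A match describes these letters in this window and shows no binding.

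Primase and the replicative polymerases were uneven. Of 9 genes, 7 had a higher mean in elektra, 2 were higher at an unadjusted p of 0.05, 0 were lower at that p, and the median difference was 0.15. That median was 0.09 without elektra replicate 2 and 0.04 with the interquartile range as a covariate. Over all genes tested 53.1% had a higher mean, 7.02% were higher and 3.95% lower at that p. These shares are the background for each role group below, and in groups this small 0 lower is near its share. Prim1, the catalytic subunit of primase, read 7.94, 7.54, 7.52 and 7.72 in elektra and 7.19, 6.82, 7.48 and 7.38 in wildtype. The genotypes did not overlap, though elektra replicate 3 and wildtype replicate 3 nearly met, and the difference was 0.46 ± 0.15 (SE; 1.38-fold, limma adjusted p = 0.359). Prim2, the large subunit that pairs with Prim1, read 7.70, 7.71, 8.16 and 7.997 in elektra and 8.08, 7.95, 8.25 and 7.68 in wildtype. Its genotypes overlapped over nearly their whole range, at a difference of -0.10 ± 0.15 (SE). The 95% interval reached from 0.12 to 0.80 for Prim1 and from -0.43 to 0.23 for Prim2, and the difference between these subunits was not tested.

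Pole, the catalytic subunit of the leading-strand polymerase epsilon, read 8.69, 8.60, 8.81 and 8.87 in elektra and 8.52, 8.43, 8.52 and 8.54 in wildtype. The wildtype arrays were tight (SD 0.05) and all below the elektra arrays, with a difference of 0.24 ± 0.09 (SE; limma adjusted p = 0.387). Its partner Pole2 stood at 0.0030 ± 0.15 (SE). Pola1, the catalytic subunit of polymerase alpha, read 8.33, 8.36, 8.29 and 8.64 in elektra and 8.38, 8.58, 8.29 and 8.50 in wildtype, and the genotypes overlapped fully. Centring each array on its median moved that difference of -0.03 to 0.02. The accessory subunit Pola2 was at 0.26, and the polymerase delta subunits Pold1, Pold2 and Pold3 were at 0.07, 0.18 and 0.15, all with overlapping genotypes.

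The clamp and the enzymes that finish lagging-strand fragments all had higher means in elektra, with 1 of 3 higher at an unadjusted p of 0.05, 0 lower at that p and a median of 0.24. Pcna, which encodes the clamp itself, read 10.97, 10.80, 11.01 and 10.91 in elektra and 10.54, 10.48, 10.78 and 10.81 in wildtype. Wildtype replicate 4 just exceeded elektra replicate 2, so the genotypes overlapped at their edges, and the difference was 0.27 ± 0.10 (SE; 1.20-fold, limma adjusted p = 0.402). Fen1, the flap endonuclease that trims the fragments, read 6.61, 6.86, 7.11 and 6.72 in elektra and 6.68, 6.38, 6.25 and 7.01 in wildtype. Wildtype replicates 1 and 4 stood among the elektra arrays, and the difference of 0.24 ± 0.17 (SE) was 0.04 without both arrays of low Xist. Lig1, the ligase that seals them, was at 0.11 ± 0.16 (SE), and single arrays moved it between 0.01 without wildtype replicate 3 and 0.27 without wildtype replicate 4. The median of these 3 genes was 0.13 without wildtype replicate 3, 0.15 without elektra replicate 3 and 0.04 without both arrays of low Xist.

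All 6 clamp loader genes had higher means in elektra, from 0.05 for Rfc5 to 0.42 for Rfc4, with a median of 0.14. Of these, 1 reached an unadjusted p of 0.05 upward and 0 downward. Rfc4, a small subunit of the loader, read 8.42, 8.18, 8.26 and 8.09 in elektra and 8.05, 7.24, 7.86 and 8.13 in wildtype. Wildtype replicate 2 was far below the others, and the difference of 0.42 ± 0.18 (SE; limma adjusted p = 0.429) was 0.23 without it. Rfc2, another small subunit, read 9.35, 9.50, 9.42 and 9.32 in elektra and 9.24, 9.08, 9.33 and 9.25 in wildtype. Its genotypes met at the edge, with a difference of 0.17 ± 0.09 (SE). The large subunit Rfc1 was at 0.11, Rfc3 at 0.13, and Dscc1, which belongs to the alternative loader that acts in sister chromatid cohesion, at 0.14. The sign of Rfc1 turned to -0.06 with the interquartile range as a covariate.

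RPA, the trimer that protects single-stranded DNA, had 3 of 3 subunits with higher means and 2 of 3 higher at an unadjusted p of 0.05, with 0 lower at that p and a median of 0.31. Rpa2 read 8.73, 8.92, 8.73 and 8.67 in elektra and 8.49, 8.35, 8.22 and 8.73 in wildtype. Only wildtype replicate 4 reached the elektra arrays, and the difference was 0.31 ± 0.12 (SE; limma adjusted p = 0.385). Rpa1, the large subunit, was at 0.21 ± 0.10 (SE). Rpa3, the small subunit, read 10.36, 9.93, 10.19 and 9.86 in elektra and 9.96, 9.51, 9.58 and 9.80 in wildtype, a difference of 0.37 ± 0.14 (SE; limma adjusted p = 0.383). Wildtype replicate 1 reached the elektra range. The second row with the symbol Rpa3 read 8.33, 8.16, 8.16 and 7.86 in elektra and 7.91, 8.01, 8.04 and 8.47 in wildtype, a difference of 0.02. The 2 rows therefore disagreed, and their mean differed by 0.19, so the value for Rpa3 rests on which row is read. With the mean of the rows, Rpa3 was not under an unadjusted limma p of 0.05, and the RPA median was 0.21.

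GINS, the 4-subunit partner of the helicase, had higher means for all 4 genes, with 2 higher at an unadjusted p of 0.05, 0 lower at that p and a median of 0.24. Gins2 read 8.18, 7.75, 8.01 and 7.88 in elektra and 7.68, 7.41, 7.58 and 7.68 in wildtype. The genotypes did not overlap, and the difference was 0.37 ± 0.11 (SE; 1.29-fold, limma adjusted p = 0.333). Gins1 read 7.80, 7.87, 7.50 and 7.69 in elektra and 7.48, 7.11, 7.52 and 7.41 in wildtype. Elektra replicate 3 stood within the wildtype range, and the difference was 0.33 ± 0.12 (SE; limma adjusted p = 0.371). Gins3 and Gins4 were at 0.13 ± 0.19 and 0.15 ± 0.12 (SE), and Gins3 turned to -0.06 without wildtype replicate 3. Thus 2 subunits reached that p and 2 did not, a split that was not itself tested.

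Among the genes that prepare origins, Cdc6, which loads the helicase, read 7.52, 7.82, 7.68 and 7.43 in elektra and 7.52, 6.69, 7.09 and 7.49 in wildtype. Wildtype replicates 1 and 4 stood among the elektra arrays, and the difference was 0.42 ± 0.18 (SE; limma adjusted p = 0.433), or 0.25 without wildtype replicate 2. Orc6, a subunit of the origin recognition complex, read 8.40, 8.06, 8.67 and 7.96 in elektra and 8.15, 8.11, 7.91 and 8.14 in wildtype. Elektra arrays lay on both sides of the wildtype ones, and the difference was 0.20 ± 0.15 (SE), or 0.06 without elektra replicate 3. Orc1, the largest subunit of that complex, had a mean of 6.11 over the 8 arrays, just under the filter at 6.17. Its signals were 6.25, 6.45, 6.07 and 6.31 in elektra and 6.10, 5.80, 5.80 and 6.10 in wildtype, with elektra replicate 3 inside the wildtype range and a difference of 0.32. Both tested genes of this group had the higher mean in elektra, with an unadjusted p under 0.05 for 1 that was higher and 0 that were lower, and a median of 0.31.

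**Figure D3:**
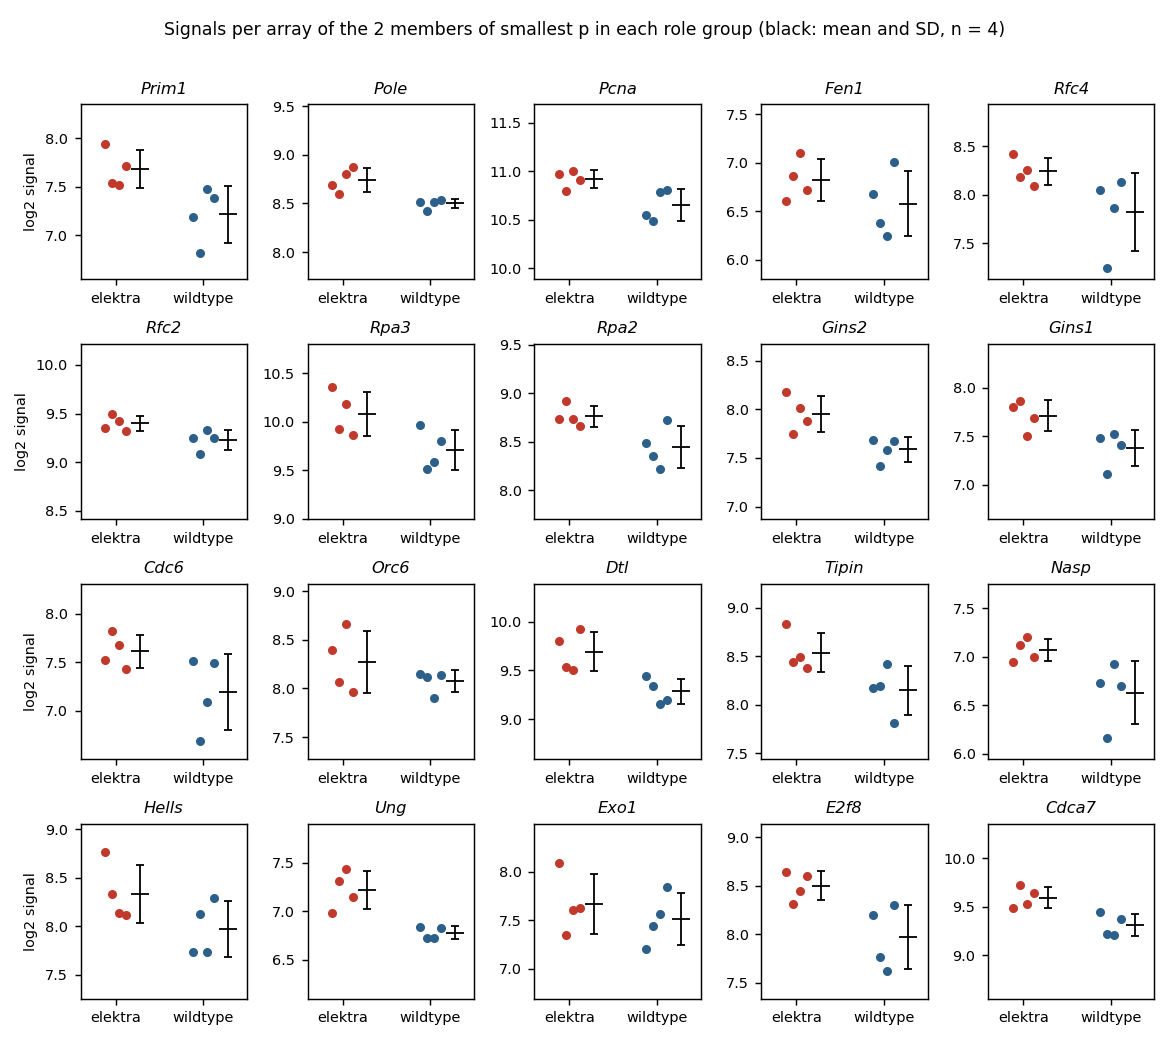
Each panel shows the log2 signal (y axis, spanning the same width in every panel) of a gene on the 4 elektra arrays in red and the 4 wildtype arrays in blue, replicates 1 to 4 from left to right, with the mean and SD (n = 4) in black. The panels are the 2 members of smallest p in each of the 10 role groups, and the genotypes are separate for Prim1, Pole, Gins2, Dtl, Nasp, Ung, E2f8 and Cdca7.

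Fork protection genes were divided. Of 4, 3 had a higher mean, 2 were higher at an unadjusted p of 0.05, 0 were lower at that p, and the median was 0.30. Dtl, the substrate receptor of the ubiquitin ligase that destroys Cdt1 and other PCNA-bound proteins in S phase, read 9.80, 9.54, 9.51 and 9.93 in elektra and 9.44, 9.34, 9.16 and 9.19 in wildtype. All elektra arrays were above all wildtype arrays, with a difference of 0.41 ± 0.12 (SE; 1.33-fold, limma adjusted p = 0.308). Tipin read 8.83, 8.45, 8.50 and 8.37 in elektra and 8.17, 8.19, 8.42 and 7.81 in wildtype. Wildtype replicate 3 reached the lower elektra arrays, and the difference was 0.39 ± 0.14 (SE; limma adjusted p = 0.38). Timeless, which forms a stable pair with Tipin, was at 0.21 ± 0.16 (SE), with an SD of 0.37 over the elektra arrays and 0.05 over the wildtype arrays. Elektra replicate 2 was its lowest array, and the difference was 0.39 without that array and 0.12 without elektra replicate 4.

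Clspn, which encodes claspin, the adaptor that carries the checkpoint signal to Chek1, did not share this pattern. It read 6.57, 6.51, 6.76 and 6.52 in elektra and 6.57, 6.58, 6.65 and 6.56 in wildtype. The wildtype arrays lay inside the elektra range, and the difference was -0.0026 ± 0.09 (SE), with a 95% interval from -0.20 to 0.20. Its sign turned under quantile scaling (0.04), under median centring of the arrays (0.05) and in 5 other settings, so no direction can be given for it.

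Genes that supply and assemble chromatin spread from -0.09 to 0.44, with 4 of 6 higher in the mean and a median of 0.11. Of these, 1 reached an unadjusted p of 0.05 upward and 0 downward. Over all genes tested 53.1% had a higher mean, 7.02% were higher and 3.95% lower at that p, so these counts are near the background. Nasp, a histone chaperone that holds the soluble pool of H3 and H4, read 6.95, 7.12, 7.20 and 7.00 in elektra and 6.73, 6.16, 6.92 and 6.70 in wildtype. The genotypes did not overlap, though elektra replicate 1 and wildtype replicate 3 nearly met. The difference of 0.44 ± 0.15 (SE; 1.36-fold, limma adjusted p = 0.359) was 0.28 without wildtype replicate 2. Hells, a remodeller of the SNF2 family needed for DNA methylation, read 8.76, 8.33, 8.13 and 8.12 in elektra and 7.73, 8.12, 7.73 and 8.30 in wildtype. Elektra replicate 1 was well above the other arrays, wildtype replicates 2 and 4 stood among the elektra arrays, and the difference was 0.36 ± 0.17 (SE).

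Chaf1a and Chaf1b encode the large and middle subunits of CAF-1, which deposits H3 and H4 behind the fork. Chaf1a read 7.58, 7.59, 7.39 and 7.23 in elektra and 7.53, 7.21, 7.20 and 7.93 in wildtype, so wildtype replicate 4 was the highest array and the genotypes overlapped. The Chaf1a difference of -0.02 ± 0.16 (SE) was 0.13 without that array, while Chaf1b was at 0.17 ± 0.10 (SE). Slbp, which binds the stem-loop of histone transcripts, was at 0.04 ± 0.12 (SE). Atad2, a bromodomain ATPase of newly made chromatin, read 7.58, 7.32, 7.01 and 7.27 in elektra and 7.84, 6.84, 7.12 and 7.75 in wildtype. Wildtype replicates 1 and 4 were above all elektra arrays, wildtype replicate 2 was below them and wildtype replicate 3 was among them, with a difference of -0.09 ± 0.22 (SE), which was 0.06 without wildtype replicate 1.

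Of the repair genes, all 3 had a higher mean, with an unadjusted p under 0.05 for 1 that was higher and 0 that were lower, and a median of 0.15. That median was 0.06 without elektra replicate 1 and 0.26 without elektra replicate 2 or wildtype replicate 4. The stricter level filter dropped Ung and Exo1, so its value of 0.04 is that of Usp1 alone. Ung, the glycosylase that removes uracil from newly copied DNA, had the smallest p of the members. It read 6.98, 7.31, 7.43 and 7.14 in elektra and 6.84, 6.72, 6.73 and 6.83 in wildtype. The wildtype arrays were close together (SD 0.06) and every elektra array exceeded them, with a difference of 0.44 ± 0.11 (SE; 1.35-fold, limma adjusted p = 0.259). Exo1, an exonuclease of mismatch repair and resection, read 8.09, 7.35, 7.61 and 7.63 in elektra and 7.20, 7.45, 7.57 and 7.85 in wildtype. Elektra replicate 1 was the highest array and wildtype replicate 1 the lowest, and the difference of 0.15 ± 0.17 (SE) was 0.01 without the first and 0.05 without the second. Usp1, the deubiquitinase of PCNA and Fancd2, was at 0.04 ± 0.12 (SE).

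The E2F pathway genes all had higher means, with 2 of 4 higher at an unadjusted p of 0.05, 0 lower at that p and a median of 0.25. E2f8, an atypical E2F that represses S-phase genes late in the cycle and is itself an E2F target, differed most. It read 8.64, 8.31, 8.45 and 8.60 in elektra and 8.19, 7.76, 7.62 and 8.30 in wildtype. Elektra replicate 2 and wildtype replicate 4 were almost level, the wildtype arrays spread widely (SD 0.33), and the difference was 0.53 ± 0.16 (SE; 1.44-fold, limma adjusted p = 0.316). E2f1, the classic activator, was at 0.05 ± 0.11 (SE), with a 95% interval from -0.19 to 0.28. Cdca7, a Myc and E2F target that works with Hells, read 9.48, 9.72, 9.53 and 9.64 in elektra and 9.44, 9.22, 9.21 and 9.37 in wildtype. Its genotypes were separate, though elektra replicate 1 and wildtype replicate 1 nearly met, and the difference was 0.28 ± 0.10 (SE; limma adjusted p = 0.359). Wdr76 was also separate on all arrays, but only just, with its lowest elektra array at 7.96 and its highest wildtype array at 7.94. Its difference was 0.22 ± 0.10 (SE; limma unadjusted p = 0.054, limma adjusted p = 0.459).

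The arrays of a genotype also differed among themselves in the level of the members. Taking each tested member as its deviation from its own mean over the 8 arrays, the members averaged 0.18, 0.05, 0.08 and 0.10 on the elektra arrays and -0.04, -0.22, -0.13 and -0.02 on the wildtype arrays. The genotypes were separate, and the lowest elektra array and the highest wildtype array were 0.05 and -0.02. Elektra replicate 1 had 37 of 44 members above their mean and held the highest signal for 11 of them. Wildtype replicate 2 had 5 of 44 above their mean and held the lowest signal for 20. These arrays also had the widest and the narrowest interquartile range, at 2.67 and 2.41, and wildtype replicate 2 had the highest median, at 6.26. By role group, RPA, repair and the E2F pathway were separate between genotypes in mean deviation, the polymerases and the clamp loader narrowly so. The clamp and lagging strand, GINS, origin loading, fork protection and chromatin assembly overlapped. RPA takes Rpa3 from its row of higher mean. The other Rpa3 row differed by 0.02 and was highest on wildtype replicate 4, at 8.47, so the separation of RPA rests on the row read.

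**Figure D4:**
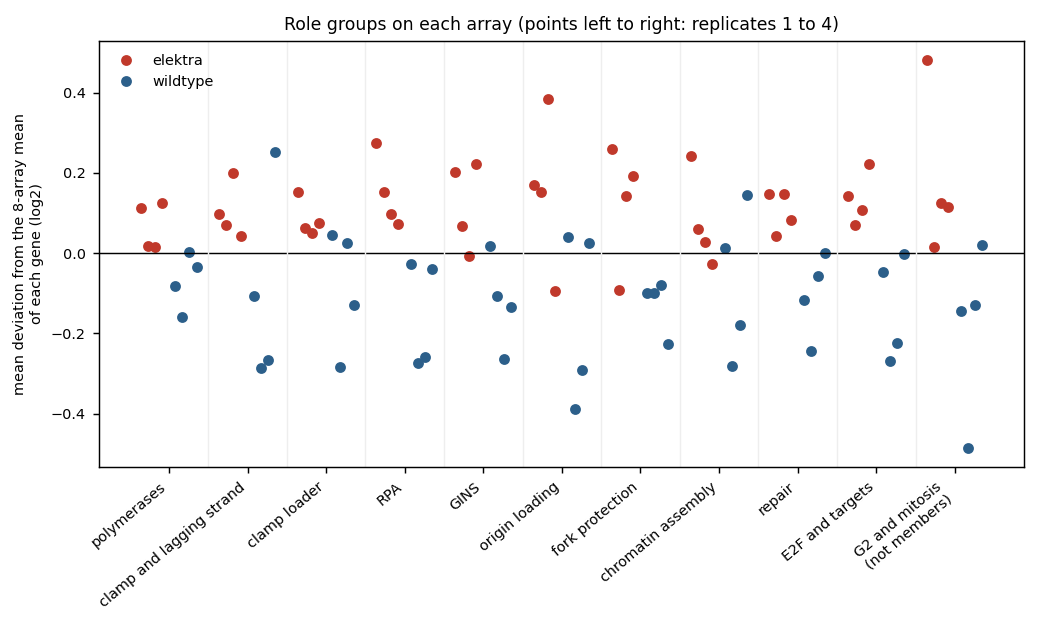
Each point is the mean deviation (y axis, log2) of a role group's tested members from their own 8-array means on an array, elektra in red to the left and wildtype in blue to the right, with replicates 1 to 4 from left to right. Wildtype replicate 2 is the lowest point of most role groups, GINS and fork protection excepted, and the last column shows 12 G2 and mitosis genes that are not members, led by elektra replicate 1 at 0.48.

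Genes of G2 and mitosis and of multipotent progenitors also had higher means in elektra. Deviations of the 12 G2 and mitosis markers averaged 0.48, 0.02, 0.13 and 0.12 on the elektra arrays and -0.14, -0.49, -0.13 and 0.02 on the wildtype arrays, so the genotypes overlapped, and the arrays at the ends were the same as for the members. All 12 were higher in the mean, 7 of them at an unadjusted p of 0.05, among them Mki67 at 0.52 and Ccna2 at 0.65. Over all genes tested 53.1% had a higher mean and 7.02% were higher at that p. The 8 progenitor markers had a list mean of 7.49 to 7.71 in elektra and 6.96 to 7.39 in wildtype. Of the 6 above the filter all had a higher mean and 4 were higher at an unadjusted p of 0.05, and 1, Plac8, passed the adjusted threshold, while Cd48, the marker against which cells were sorted, lay below the filter. The part of dividing cells and of progenitors in the members' differences was not tested.

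Markers of other lineages were less uniform. For comparison, 7.02% of all genes tested were higher and 3.95% lower at an unadjusted limma p under 0.05. The list mean was 7.61 to 7.81 in elektra and 7.45 to 7.62 in wildtype for 6 megakaryocyte markers, with an unadjusted p under 0.05 for 2 higher and 0 lower of the 5 tested. For 6 erythroid markers it was 5.80 to 6.68 in elektra and 5.83 to 6.15 in wildtype, and for 10 granulocyte and monocyte markers 6.24 to 7.17 in elektra and 6.36 to 6.67 in wildtype. Of the 6 granulocyte and monocyte markers tested 0 were higher and 1, Ctsg, was lower at that p, at -0.47 with every elektra array below every wildtype array. The 5 T and NK cell markers ranged from 6.15 to 6.41 in elektra and from 5.99 to 6.18 in wildtype, with Nkg7 at 0.57 and 3 of the 5 below the filter. The 6 B cell markers ranged from 5.75 to 6.04 in elektra and from 5.83 to 6.01 in wildtype. Their part in the members' differences was not tested.

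Other genes of DNA replication, 67 in 6 lists, were also mostly higher in the mean. Of the 66 tested, 54 had a higher mean in elektra, 19 reached an unadjusted p of 0.05 upward and 3 downward, 0 passed after adjustment, and the median was 0.22. Over all genes tested 53.1% had a higher mean, 7.02% were higher at that p and 3.95% lower, so the 3 lower genes are close to the share over all genes. Helicase and licensing genes had 10 of 21 higher and 0 lower at that p, with the geminin gene Gmnn at 0.53 (8.76 ± 0.18 in elektra and 8.23 ± 0.16 in wildtype, SD, n = 4 each; limma adjusted p = 0.211) and Dbf4, the activator of the origin-firing kinase, at 0.40. Nucleotide supply had 2 of 8 higher and 0 lower, Rrm2 of ribonucleotide reductase at 0.32 and Dctpp1 at 0.26. Of 10 E2F and pocket protein genes tested, 2 were higher and 0 lower, the E2F dimer partner Tfdp1 at 0.29 and Rbl1, which encodes p107, at 0.31.

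The remaining lists held the 3 lower genes, a number near the background of 3.95%. Among 10 accessory polymerase and loader genes, 1 was higher, the nuclease and helicase gene Dna2 at 0.46, and 1 was lower, Pold4, the small subunit of polymerase delta, which is degraded after DNA damage in human cells, at -0.27. The fork checkpoint list of 8 had Rad17, the loader of the checkpoint clamp, higher at 0.39 and Rad9a, a subunit of that clamp, lower at -0.37. Rad9a averaged 9.15 ± 0.12 in elektra and 9.51 ± 0.23 in wildtype (SD, n = 4 each; limma adjusted p = 0.359), and its genotypes did not overlap. Among 9 further chromatin assembly genes 3 were higher, led by the maintenance methylation factor gene Uhrf1 at 0.43, and 1 was lower, Tonsl, which binds newly deposited histones, at -0.28.

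Ung, Dtl, E2f8 and Gins2 stayed at an unadjusted p under 0.05 in every setting in which they were tested, with arrays left out, scaling changed or the array spread as a covariate. The difference of Ung ranged from 0.35 to 0.52, Dtl from 0.30 to 0.47, E2f8 from 0.40 to 0.64 and Gins2 from 0.29 to 0.43. Prim1 and Nasp also stayed there when each array was left out in turn, but not with the interquartile range as a covariate. No member passed the adjusted threshold in any of the 20 settings, and the adjusted p of Ung lay between 0.205 and 0.488 over its own 19.

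**Figure D5:**
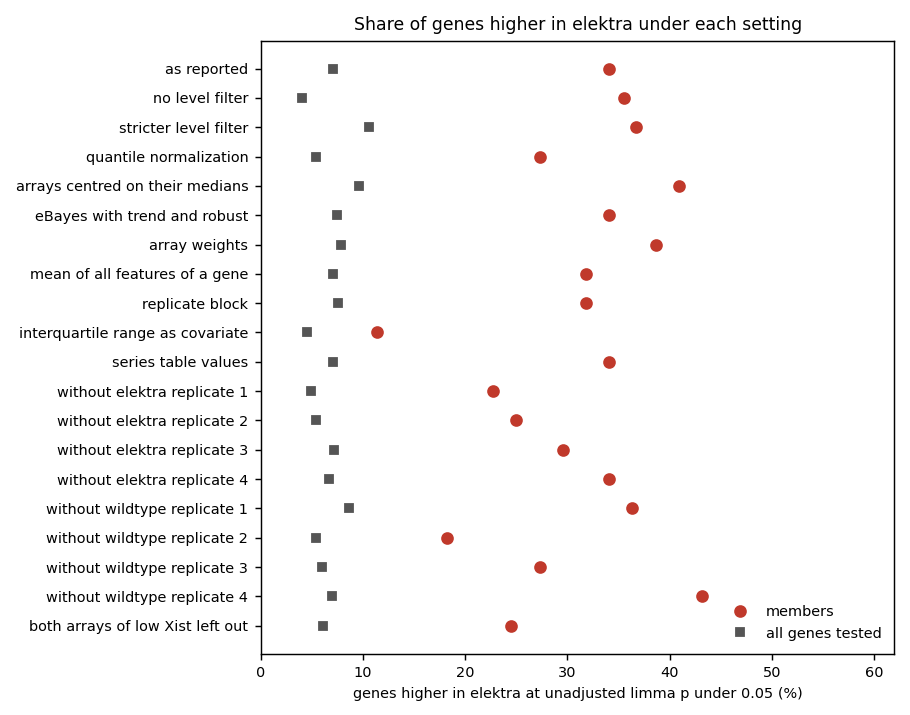
For each setting (rows), the percentage of genes higher in elektra at an unadjusted limma p under 0.05 (x axis) is shown for the members as red circles and for all genes tested as grey squares. The members' share is 34.1% as reported, lowest at 11.4% with the interquartile range as a covariate and highest at 43.2% without wildtype replicate 4, and exceeds the share of all genes in each row.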

How the data were processed

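The deposited log2 signals are RMA values that the authors computed in Affymetrix Expression Console 1.4, per the submitters' processing notes. The sources used here do not give the array design, the annotation release or how the listed features were filtered. The deposited workbook lists 33793 features, of which 32074 carry 1 symbol, 1591 none and 128 several. The deposited series table of the same arrays, with 41345 features, was an alternative and differed by at most 0.16 log2. The authors' deposited log2 ratio equalled the difference computed here.

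A gene was tested on its feature of highest mean, if that feature had 1 symbol and reached the median feature mean of 6.17 log2. The test was limma 3.58.1 (R 4.3.3; lmFit, then eBayes), two-sided and without covariates, with Benjamini-Hochberg adjustment across the 15710 genes. The procedure was tested on simulated data. Arrays carry no read depth, so their number limits the precision. The labels do not say that replicate numbers pair littermates, so the main fit did not pair them. Same-numbered arrays of the genotypes deviated together at r = 0.14, 0.02, 0.13 and -0.0017. For elektra replicates 1 and 2 the same-numbered wildtype array was the best match, and both arrays of low Xist were replicate 3. Whether the numbers pair animals is therefore not settled.

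Values on every array are given for the 2 members of smallest p in each role group and for members lower in elektra, and of the other lists the 2 genes of smallest p are named. Mki67, Ccna2, Nkg7, Ctsg, Plac8, Cd48, the other marker genes and the second row of Rpa3 are named after their values were seen. The members and lists were chosen with earlier results of these data known. Some marker genes are not reported here. The alternatives changed the level filter, the scaling, the variance model, the weights of arrays or the handling of several features, used the series table, added the replicate number as a block or the array spread as a covariate, or left out each array in turn. Leaving out both arrays of low Xist was chosen after seeing the data. Promoter sequences are from the RefSeq table of GRCm38.p6.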

Additional observations from a re-analysis of the deposited data

Results flagged for a closer look

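Among 120 sets of 4 arrays examined, 3 held an array whose gap to its nearest neighbour was a larger share of the range of the set than Dixon's 95% critical value for 4 samples, where chance flags about 1 in 20. Rfc3 read 8.39 on wildtype replicate 1, above the next wildtype array at 8.15 and the lowest at 8.10. Orc6 read 7.91 on wildtype replicate 3, below the next at 8.11 and the highest at 8.15. The 4 fork protection genes deviated by -0.23 on wildtype replicate 4, below the next wildtype array at -0.10 and the highest at -0.08.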

How the results depend on the processing

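The count of members past the adjusted threshold was 0 in each of the 20 settings. The median difference of the members moved by less than its spread between arrays in all 19 alternatives (0.16 to 0.23). Members higher at an unadjusted p of 0.05 numbered 15 as reported, 8 to 19 with an array left out and 5 with the interquartile range as a covariate, where 1 was lower. Genes past the adjusted threshold over the whole table numbered 6, against 3 with no level filter, 3 under median centring, 13 with the stricter filter, 18 with trend and robust, 2 without both arrays of low Xist, 0 with the array spread as a covariate, 0 with the replicate block and 0 to 4 with an array left out. With the replicate block, 14 members were higher, all of them among the 15. Of 190 role-group medians, 183 moved by less than their spread between arrays, 0 turned sign and 7 moved by more, in the polymerases, the clamp and lagging strand, and repair.

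Of 822 single-member values, 39 in 10 members near 0 turned sign. With quantile normalization Pole2 was -0.0086, Rfc5 -0.0037, Clspn 0.0355, Slbp -0.0137 and Usp1 -0.0090. Under median centring Pola1 was 0.0157, Clspn 0.0459 and Chaf1a 0.0296. With array weights Pole2 was -0.0043 and Chaf1a 0.0176. With the interquartile range as a covariate Pole2 was -0.0637, Rfc1 -0.0616, Rfc5 -0.0019, Clspn 0.0445, Slbp -0.0600 and Usp1 -0.0814. With an array left out the ranges were -0.27 to 0.0587 for Atad2, -0.11 to 0.13 for Chaf1a, -0.0593 to 0.0228 for Clspn, -0.0594 to 0.23 for Gins3, -0.11 to 0.0143 for Pola1, -0.0746 to 0.15 for Pole2, -0.0181 to 0.12 for Rfc5, -0.0550 to 0.11 for Slbp and -0.0595 to 0.11 for Usp1. The cause was not tested.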
